A study of Mus musculus with 4 samples.

Results

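The array carried 15617 probes that were named by a genomic interval and a strand instead of a gene, and they covered 3390 intervals of long intergenic noncoding RNA (lincRNA) on the mouse autosomes. These probes were 28.0% of the 55681 non-control probes. They were chosen by their names in the scanner file of NSCL61, with no use of a measured value, and the 577 lincRNA probes on X or Y were not counted among them. The intervals merged into 2126 loci that did not overlap. They had a median length of 7451 bases on the mm9 build, and 405 intervals had 1 probe, 1553 had 3 and 331 had 10. Probes were split about evenly between the strands, with 7903 on the forward and 7714 on the reverse strand, and 1042 intervals were probed on both.

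Expression had been measured on 4 single-colour arrays, 1 array for each of 4 groups of p53-/- mouse neural stem cells, taken from the brain of E14.5 embryos and grown without serum. NSC is the stem cell culture, and NSC-Ceacam1L is the same kind of cell made to express Ceacam1L, a form of an immunoglobulin-family adhesion molecule. NSCL61 is a cell line that carries the same p53 genotype, known as a glioma-initiating line, and NSCL61-Ceacam1sh expresses a short hairpin RNA against Ceacam1, called the hairpin here. Per the labels, selection with hygromycin lasted 1 week after transfection, and 0.5 µg of total RNA was labelled with Cy3. The labels do not say whether the NSC and NSCL61 cells carried an empty vector, nor whether a culture was 1 clone. Ceacam1 itself was not analysed here. The comparisons asked which transcripts differ when Ceacam1 is added to NSC or reduced in NSCL61, as the series' design text sets out, and NSCL61 was also set against NSC. Each group had 1 array, so no difference has a replicate check and no p-value is given. Array position and group cannot be told apart.

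Levels are log2 signals relative to each array's 75th percentile, so that 0 is the 75th percentile of that array. A probe was called detected when the scanner software marked it well above background. A probe was evaluated in a comparison when it was detected on at least 1 of the 2 arrays, and counted as higher or lower at a 2-fold difference, with detection on the brighter array. Each difference is given with the scanner's modelled error, which covers technical spread within an array only. Signals of separate probes also depend on their sequences, so levels are compared between arrays and not between probes.

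LincRNAs are transcripts that do not encode a protein and lie between protein-coding genes. Many are spliced, polyadenylated and restricted to few cell types, and some start close to the promoter of a neighbouring developmental gene. Well-known members act in the nucleus as scaffolds (Neat1, the core of paraspeckles), in chromosome silencing (Xist) or as hosts of small RNAs. In the developing brain, transcription factor genes such as Sox2, Pou3f3 and Otx2 have noncoding neighbours that are transcribed in neural progenitors.

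The probes themselves are 60 bases long, and the files give the sequence of each. The next pair lies on opposite strands of chr1:42689799-42749799, an interval that holds the lincRNA gene Pantr1 beside Pou3f3. Capitals mark the 32 bases that both probes cover, read on opposite strands, and the pair is shown because each strand has its own probe.
Pantr1 interval, reverse: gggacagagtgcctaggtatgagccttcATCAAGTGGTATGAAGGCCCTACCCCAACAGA
Pantr1 interval, forward: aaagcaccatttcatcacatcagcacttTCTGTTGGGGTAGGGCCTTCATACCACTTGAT
The probe for chr3:34856791-34869544, an entry on the forward strand, is shown because it had the largest positive difference between NSCL61 and NSC among intervals whose brightest probe was detected on both arrays. The files place its 3 probes outside the interval of its name, at chr3:34576423-34576482 for the printed probe, which is beside Sox2. It has no capitals.
Sox2-side interval: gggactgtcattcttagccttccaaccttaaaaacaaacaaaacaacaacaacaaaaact
Some probes carry sequence of other genes. In the probe for chr14:49314574-49358174, an interval beside Otx2, capitals mark the 54 bases, of 58 aligned with 1 gap, that are identical to the array's probe for the ribosomal protein gene Rpl11.
Otx2-side interval: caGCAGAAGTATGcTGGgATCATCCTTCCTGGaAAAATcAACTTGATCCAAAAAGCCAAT
In the probe for chr17:39982023-39983277, 1 of the 5 intervals with the brightest probes, capitals mark its 7 CG dinucleotides.
chr17 interval: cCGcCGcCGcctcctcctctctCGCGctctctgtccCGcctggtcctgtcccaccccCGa
The probe for chr8:123571640-123607481, which holds the lincRNA gene Fendrr, ends close to an ATTAAA hexamer, a variant of the polyadenylation signal, in capitals.
Fendrr interval: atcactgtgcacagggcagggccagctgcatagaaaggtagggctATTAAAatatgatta
In the probe for chr15:85412264-85549139, capitals mark the 49 bases that lie inside the Mirlet7c-2 hairpin, a precursor of the let-7 family of microRNAs. The RefSeq table (GRCm38.p6) gives the mature microRNAs, with the seed in capitals, of this hairpin and of Mir9-1, which lies inside the gene Gm3764 described with the hairpin comparison.
let-7 interval: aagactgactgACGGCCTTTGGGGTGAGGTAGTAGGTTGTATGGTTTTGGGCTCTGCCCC
mmu-let-7c-5p: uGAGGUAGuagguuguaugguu
mmu-miR-9-5p: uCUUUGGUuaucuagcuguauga

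The share of lincRNA probes that were detected lay below that of gene-named probes on each of the 4 arrays. LincRNA probes were detected at 29.4%, 32.7%, 35.1% and 30.3% on NSC, NSC-Ceacam1L, NSCL61 and NSCL61-Ceacam1sh. Gene-named probes were detected at 62.0%, 66.3%, 64.2% and 61.6% on the same arrays. In all, 6946 lincRNA probes (44.5%) were detected on 1 array or more and 3519 on all 4, whereas 68.9% of all other probes were detected on 1 array or more. By interval, 2557 (75.4%) had a detected probe on some array, 1675 had 1 on each array, and 833 had none. Of the detected lincRNA probes on NSCL61, 15.4% reached the array's 75th percentile, compared with 52.5% of the other detected probes. NSCL61 had the most lincRNA probes that no other array detected, 669 (4.28%), against 273 (1.75%) on NSC, 375 (2.40%) on NSC-Ceacam1L and 521 (3.34%) on NSCL61-Ceacam1sh. Of all other probes, 0.98% were detected on NSC only, 2.29% on NSC-Ceacam1L only, 2.31% on NSCL61 only and 2.83% on NSCL61-Ceacam1sh only.

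Detection followed the base composition of the probe. At a GC content of 35% or less, 37.5% of 2475 lincRNA probes were detected on 1 array or more, and above 60% GC, 84.2% of 329 were. Gene-named probes printed once moved less, from 72.8% to 83.9%, so the shares were furthest apart at low GC and close above 60%, where 87 gene-named probes were counted. The polyadenylation hexamers AATAAA or ATTAAA, read on the strand of the probe, were found in 6.31% of lincRNA probes and in 17.8% of gene-named probes. Their reverse complements, TTTATT or TTTAAT, were found in 5.16% and 6.80%. Among lincRNA probes with 40% GC or less, 43.0% of those with a hexamer and 37.3% of those without were detected. A hexamer match is a description of the letters only, and the part of base composition in these shares was not tested.

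Most pairs of opposite-strand probes with signal were detected on 1 strand only. Because few probes were detected, such a share can arise without a preference for a strand, and a preference was not tested. Of the 1607 pairs of probes that share 30 bases or more on opposite strands, 574 were detected on 1 strand only on NSC, 159 on both strands and 874 on neither. Among pairs with signal, the share with 1 strand only was 78.3%, 75.1%, 73.2% and 76.8% on the 4 arrays, in the order of the labels above (NSC, its Ceacam1L partner, NSCL61, its hairpin partner), which is kept for all values given for 4 arrays. Of the 1042 intervals probed on both strands, 663 had a detected probe on each strand, 312 on 1 strand and 67 on none. In the Pantr1 pair printed above, the reverse probe had log2 signals of 5.36, 5.10, 3.96 and 1.09 on NSC, NSC-Ceacam1L, NSCL61 and NSCL61-Ceacam1sh. The forward probe had -0.17, -0.19 and -1.69, and -4.69 on NSCL61-Ceacam1sh, where it was not well above background. Both strands were lowest on NSCL61-Ceacam1sh.

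Some of the brightest signals came from intervals placed around a ribosomal RNA probe. Whether these lincRNA probes carry ribosomal RNA sequence was not tested. The rule for the 5 brightest detected intervals named chr11:22681800-22707775, chr17:39982023-39983277, chr17:17481706-17482457, chr14:78924115-78938125 and chr7:108209996-108216032. The chr17:39982023-39983277 probe had 8.04, 8.02, 8.43 and 8.16 on the 4 arrays, with differences of 0.40 or less in size. The files place a probe of 18S ribosomal RNA (Rn18s), a component of the small ribosomal subunit, in the same stretch, at 9.57, 9.45, 9.69 and 9.34. In the window chr17:39960567-39992817, singled out after its values were seen, 20 of 20 lincRNA probes from 5 intervals were detected on all 4 arrays. The 10 forward probes had a median of 6.20, 6.04, 6.83 and 6.65, and the 10 reverse probes a median of 3.64, 3.53, 4.31 and 4.17. All 20 stayed within 2-fold in each comparison, with the widest difference at 0.76 between NSCL61 and NSC.

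A further group copied the sequence of another probe, which could be a gene-named probe or another lincRNA probe. Of the lincRNA probes, 423 (2.71%) aligned over 40 bases or more at 85% identity or more to another probe on the array. Of these, 57.9% were detected on 1 array or more, compared with 44.1% of the rest, and they made up 34 of the 300 brightest lincRNA probes. Of the probes that copied a gene-named probe, 44 in number, 36 matched a protein-coding accession. Their differences followed those of the gene copied, with Pearson r across probes of 0.99 for NSC-Ceacam1L minus NSC (n = 30), 0.92 for NSCL61-Ceacam1sh minus NSCL61 (n = 29) and 0.94 for NSCL61 minus NSC (n = 28). The members of each pair share bases and may share transcripts, so these values describe the probes and not separate genes. Some copied ribosomal protein genes. The probe for chr11:22681800-22707775, at 8.43, 7.83, 8.08 and 8.52, copied Rps16. The Otx2-side probe printed above had 5.24, 4.50, 4.64 and 5.73, and the Rpl11 probe had 7.61, 7.05, 7.20 and 7.95. Otx2, whose probe lies 29.6 kb from that interval, went from 2.75 on NSCL61 to -5.90, not well above background, on NSCL61-Ceacam1sh. The 74 lincRNA probes whose 60 bases were printed again under another name gave a check of the array itself where both copies were detected, which was so for 33 to 36 of them on an array. The median difference between the copies was 0.11 to 0.12 on the log2 scale. The largest was 1.23, for 1 pair on NSC that passed 2-fold, and no pair passed 2-fold on the other arrays.

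Adding Ceacam1L to NSC went with more lower than higher lincRNA probes. Between NSC-Ceacam1L and NSC, 522 of 5577 evaluated probes (9.36%) were higher, beside 9.6% of all non-control probes, and 690 (12.4%) were lower, beside 7.93% of all. The hairpin comparison moved more probes. Between NSCL61-Ceacam1sh and NSCL61, 940 of 6198 (15.2%) were higher, beside 21.5% of all probes, and 1795 (28.96%) were lower, beside 24.8% of all. Called either way were 44.1% of the lincRNA probes and 46.3% of all probes. Between NSCL61 and NSC, 1009 of 5966 (16.9%) were higher, beside 14.3% of all, and 708 (11.9%) were lower, beside 13.1% of all. Among probes detected on both arrays, the SD of the lincRNA differences was 0.60, 1.01 and 0.73 in the 3 comparisons, and that of other probes was 0.67, 1.496 and 0.99.

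The balance between higher and lower rested on the scaling of the arrays. With spike-in scaling, which moved the median of all probes by 0.37 between the NSC arrays, 752 lincRNA probes were higher and 466 lower, so that the share of calls that were higher went from 43.1% to 61.7%. It went to 51.5% with the 75th percentile of probes detected on all arrays (603 higher, 567 lower) and to 51.7% with cyclic loess (610 higher, 569 lower). In the hairpin comparison the share was 34.4%, and it was 48.9% with median scaling and 49.96% with spike-in scaling. Between NSCL61 and NSC it went from 58.8% to 49.3% with spike-in scaling. Under each scaling run, the share of lincRNA probes that were lower with Ceacam1L was above that of all probes, for example 8.36% against 4.36% with spike-in scaling. In the main scaling, 416 of the 690 lower lincRNA probes were detected on NSC only, beside 1008 of 2430 lower probes among all. Of probes detected on both arrays, 274 of 4116 lincRNA probes were lower, beside 1422 of 26300 of all. Brightness was not matched in these shares. The share of lincRNA probes that were higher with the hairpin was below that of all probes under each scaling, for example 21.3% against 32.5% with spike-in scaling.

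NSCL61-Ceacam1sh was the array that stood apart. Across the 3519 lincRNA probes detected on all 4 arrays, Pearson r of the log2 signals was 0.951 to 0.969 among the other arrays and 0.902 to 0.913 between NSCL61-Ceacam1sh and each of them. The neural stem cell markers (Nes, Sox2 and 6 others) were detected for 8, 8, 7 and 8 of 8 genes on NSC, NSC-Ceacam1L, NSCL61 and NSCL61-Ceacam1sh, with summed levels of 739, 607, 879 and 318 relative to the 75th percentile. On NSCL61-Ceacam1sh, Vim was the brightest of them, at 8.13. With the hairpin Nes, Sox2, Fabp7 and Slc1a3 were lower, Prom1 was higher, and Vim, Pax6 and Msi1 were within 2-fold. Fabp7 went from 8.36 on NSCL61 to -4.00 and Slc1a3 from 4.73 to -3.70, both still detected. The astrocyte list had summed levels of 235, 453, 668 and 1.44, with 4, 5, 4 and 2 of 5 genes detected. The oligodendrocyte lineage list had 198, 191, 122 and 2.48, with 7, 7, 6 and 4 of 7 detected. Gfap, Olig1 and Olig2 were not well above background on NSCL61-Ceacam1sh. The fibroblast list had 2.33, 13.6, 0.39 and 21.7, with 3, 4, 4 and 5 of 7 detected, and its genes went opposite ways. Thy1, which neurons also express, had 1.00, 3.71 and -3.21, and was not well above background on NSCL61-Ceacam1sh, at least 2.92-fold lower than on NSCL61. Col1a1, Col1a2, Col3a1, Dcn and Pdgfrb were higher with the hairpin, and Lum was detected on no array. These lists move with the hairpin comparison described next, and their part in it was not tested. Fewer cells of a type and less RNA per cell cannot be told apart in such samples.

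With Ceacam1L, 4 of the 5 intervals with the largest positive difference, among those whose brightest probe was detected on both arrays, had other probes that moved alike. The 4 include chr15:32167516-32174417 and chr15:32167516-32174427, which overlap and may count 1 transcript. In chr7:91558475-91733625, which holds the noncoding gene Gm2115, the brightest probe had -1.94, 0.91, -1.22 and -1.53 on the 4 arrays. All 5 evaluated forward probes were higher with Ceacam1L, by 2.81 to 2.97, and NSC-Ceacam1L was the highest of the 4 arrays. Gm2115, measured by its own probe, was 2.48 higher, at -0.02 on NSC and 2.46 on NSC-Ceacam1L. In chr15:32167516-32174417, which holds the small nucleolar RNA host gene Snhg18, the brightest probe had -3.24, -0.60, -3.60 and -0.85, highest on NSC-Ceacam1L and NSCL61-Ceacam1sh. All 4 evaluated reverse probes were higher with Ceacam1L, and 2 of the 4 were detected on NSC, with differences of 2.03 and 2.64. The gene's own probe was 2.60 higher in both Ceacam1 comparisons and differed by -0.11 between NSCL61 and NSC. In chr6:31170350-31287353, which holds 2210408F21Rik, 3 of 3 probes were higher with Ceacam1L and with the hairpin. The brightest exceeded NSC by 2.47 on NSC-Ceacam1L. On NSCL61-Ceacam1sh it exceeded NSCL61 by at least 48.8-fold, since no probe of the interval was detected on NSCL61 and 1 of 3 was on NSC. The probe of 2210408F21Rik itself was detected on none of the 4 arrays. The largest positive difference between 2 detected signals, 3.61 with an error of 0.31, was at chr8:19692532-19694101, where neither of the other probes was called. Among intervals whose brightest probe was not detected on NSC, chr1:40113912-40114565 had the largest bound, at least 15.9-fold, and in none of the 3 largest did another probe have the same call.

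Among intervals whose brightest probe was detected on both arrays, the largest negative differences with Ceacam1L were carried by single probes. In chr12:88154776-88184372, beside Irf2bpl, a forward probe had -0.72 on NSC, -4.66 on NSC-Ceacam1L, -4.98 on NSCL61 (not well above background) and -4.24 on NSCL61-Ceacam1sh, a difference of -3.95 with an error of 0.33. In chr1:123016343-123017009, inside the noncoding gene Celrr, the only probe had 0.08 and -3.74 on the NSC arrays and was not well above background on the NSCL61 arrays, while the probe of Celrr itself had 0.61 and 0.56 on the NSC arrays. Of the 5 intervals with the largest negative difference, 4 had other probes on the strand, and in none of the 4 did another probe have the same call. Of the 3 intervals with the largest bound, 1 had another probe with the same call, chr4:63736566-63744848, where 2 of 2 evaluated probes were lower. Intervals in which every probe was lower did exist. In chr17:12941161-12944859, inside the imprinted antisense gene Airn, the 3 evaluated probes of 5 were lower, with a median of -3.56 on NSC and -5.70 on NSC-Ceacam1L, where none was detected. Airn's own probe differed by -0.24. In chr6:127111250-127142925, 12.5 kb from the cyclin gene Ccnd2, 5 of 5 probes were lower with Ceacam1L by 1.28 to 1.89, and Ccnd2 itself was 1.19 lower, at 5.49 on NSC and 4.29 on NSC-Ceacam1L.

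With the hairpin, many intervals were lower in all their probes. Every evaluated probe was lower in 150 and higher in 60 of 894 interval strands with 3 or more evaluated probes. The numbers were 20 and 17 of 753 with Ceacam1L, and 35 and 44 of 829 between NSCL61 and NSC. These counts were made in the main scaling only, and not for probes of other kinds. In that scaling 28.96% of lincRNA probes and 24.8% of all probes were lower with the hairpin. The balance of higher and lower calls rested on the scaling, as given above. The 3 probes of chr3:34856791-34869544 lie 25019 bases from the probe of Sox2 and 3.1 kb from that of the noncoding gene Sox2ot, by their own coordinates. The printed probe had -1.52, 0.44, 1.88 and -3.40 on the 4 arrays, in the order NSC, NSC-Ceacam1L, NSCL61, NSCL61-Ceacam1sh. The differences were 1.96 with Ceacam1L, -5.28 with the hairpin and 3.40 between NSCL61 and NSC, with errors of 0.21 to 0.25. All 3 probes were called in these directions in each comparison, and the other pair was not detected on NSCL61-Ceacam1sh. Sox2, a transcription factor of neural stem cells, had 3.55, 3.82, 4.12 and 2.36, and Sox2ot had -2.58, -2.52, -1.58 and -5.41, the last not well above background. All of them were lowest on NSCL61-Ceacam1sh.

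In chr3:88009045-88036270, which holds Gm3764, the brightest probe had 5.51, 5.20, 4.39 and -1.65, a difference of -6.04 with the hairpin and an error of 0.21. All 7 evaluated forward probes were lower with the hairpin. The probe of Gm3764 had -1.33, -2.32 and -4.13, and -6.74 on NSCL61-Ceacam1sh, where it was not well above background. The RefSeq table places the hairpin of miR-9, a microRNA of neural progenitors, inside Gm3764, and mature miR-9 was not measured here. In chr16:77670599-77691642, both probes were lower with the hairpin, by 3.84 and 3.90, and higher in NSCL61 than in NSC, by 2.56 each. In chr1:135956616-135957485, 12.6 kb from Fmod and 14.6 kb from the p53-responsive gene Btg2, the 3 probes had medians of 0.55, 0.44 and 0.42 on the first 3 arrays and none was detected on NSCL61-Ceacam1sh. The brightest was at least 35.9-fold lower there, and Btg2 went from 2.41 to -0.68, while Fmod was not detected on either NSCL61 array. In chr8:93337794-93348869, which has no gene-named probe within 100 kb, 3 of 3 reverse probes were at 0.81 to 1.60 on NSCL61 and none was detected on NSC or NSCL61-Ceacam1sh. Its brightest probe was at least 72.1-fold lower with the hairpin. NSCL61 exceeded NSC there by at least 51.7-fold.

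The interval chr16:43623581-43642715, 4.5 kb from Zbtb20, was singled out after its values were seen, because its probes on both strands moved together. Zbtb20 is a zinc finger transcription factor of the developing brain. The 10 forward probes had medians of -1.01, 0.14, 1.79 and -1.18 on the 4 arrays, and the 10 reverse probes had -4.59, -4.02, -2.33 and -4.67. Detected on these arrays were 9, 10, 10 and 9 of the forward probes and 3, 8, 10 and 4 of the reverse probes. The reverse medians on NSC and NSCL61-Ceacam1sh therefore rest mostly on probes not well above background. All 20 probes were lower with the hairpin, and 19 of 20 were higher in NSCL61 than in NSC. Zbtb20 itself had 2.15, 2.76, 4.71 and 2.11, the same order over NSCL61 and its hairpin partner.

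Higher levels with the hairpin were also shared by probes of an interval. In chr5:91480533-91502237, between the growth factor genes Epgn and Ereg, 3 of 3 reverse probes were detected on NSCL61-Ceacam1sh alone, at -1.08 to -0.43, and Ereg, an epidermal growth factor receptor ligand, was detected on that array alone at 4.37. In chr2:36112819-36114110, 5.1 kb from the cyclooxygenase gene Ptgs1, 3 of 3 probes were detected on NSCL61-Ceacam1sh at a median of -2.36 and none on NSCL61, and Ptgs1 was at 5.95 on that array. In chr1:175653557-175671940, which holds the interferon-inducible gene Ifi207, all 3 evaluated probes were higher, by 2.69 for the probe detected on both arrays, while the others were detected on NSCL61-Ceacam1sh alone, and Ifi207 was detected at 0.01 on NSCL61-Ceacam1sh and not on NSCL61. The intervals chr14:55433382-55452757 and chr5:96591892-96606467 had the largest positive differences among intervals detected on both arrays, 4.66 and 4.65, but their probes match at 53 of 54 aligned bases, so they may count 1 transcript. At chr10:120058696-120076196, which holds the noncoding gene 4930471E19Rik, the brightest probe was above background on NSCL61-Ceacam1sh only, by at least 67.4-fold, and the gene's own probe by at least 22.2-fold.

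Between NSCL61 and NSC, intervals near the probes of known noncoding genes were among those with every probe higher. In chr2:128137419-128141735, 0.3 kb from Morrbid, a noncoding gene beside the cell death gene Bcl2l11, 3 of 3 probes were undetected on both NSC arrays and had medians of -1.36 on NSCL61 and 0.03 on NSCL61-Ceacam1sh. Morrbid itself was undetected on both NSC arrays, at -1.99 on NSCL61 and 0.63 on NSCL61-Ceacam1sh. In chr19:5834117-5835940, 6.6 kb from the probe of Neat1, 3 of 3 probes were detected on NSCL61, at a median of -0.92, and none on NSC. Neat1 was 2.14 higher in NSCL61 by its own probe. Distances are to a gene's probe, so whether an interval lies inside Neat1 or Malat1 cannot be told from them. Both intervals of 3 probes within 10 kb of the probe of Malat1, chr19:5798135-5800557 and chr19:5801802-5802597, were singled out after their values were seen. Their medians were 3.82, 3.43, 4.89 and 2.48, and 5.95, 5.59, 7.17 and 4.78, on the 4 arrays. All 6 probes were higher in NSCL61 than in NSC, with differences of 1.07 to 1.22, and lower with the hairpin, with differences of -2.41 to -2.20. Malat1, a nuclear speckle RNA, differed by -0.36 and -0.84 in these comparisons by its own probe. In chr7:128341797-128414692, which has probes on both strands, 10 of 10 probes were higher in NSCL61 than in NSC and 10 of 10 were lower with the hairpin.

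Lower levels in NSCL61 than in NSC had other probes with the same call in some of the most changed intervals. Of the 5 intervals with the largest negative difference among those detected on both arrays, 1 had another probe with the same call, and of the 3 with the largest bound, whose brightest probe was not detected on NSCL61, all 3 did. In chr13:58474388-58487288, which holds 2210016F16Rik, 4 of 4 reverse probes had a median of 0.34 on NSC and none was detected on NSCL61, with the brightest at least 45.3-fold lower. In chr11:16834711-16851125, 1.3 kb from Fbxo48 and 20.8 kb from Egfr, the epidermal growth factor receptor gene, 3 of 3 probes were detected on NSC at a median of -3.25 and none on NSCL61. Egfr went from 4.49 to 3.17, and to 0.15 on NSCL61-Ceacam1sh, while Fbxo48 was detected on NSCL61 alone, at -1.37.

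Agreement between probes of an interval was measured over all interval strands with 2 or more evaluated probes. With Ceacam1L, 148 of 1407 had 2 or more calls in the same direction and none in the other, 43 had calls in both directions, and 371 had a single called probe. With the hairpin the numbers were 510, 103 and 463 of 1599, and between NSCL61 and NSC 234, 64 and 449 of 1527. A single called probe was the most frequent case, among strands with any call, for Ceacam1L and between NSCL61 and NSC. The median SD between probes of a strand was 0.20, 0.31 and 0.22 in these comparisons. Among probes detected on 1 array only and at least 4-fold brighter there, another probe of the strand was detected on that array for 50.5%, 43.1%, 50% and 72.6% on NSC, NSC-Ceacam1L, NSCL61 and NSCL61-Ceacam1sh.

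Candidates for a response to Ceacam1 in opposite directions were few. Of 4831 lincRNA probes evaluated in both Ceacam1 comparisons, which share no array, 129 (2.67%) were higher with Ceacam1L but lower in the hairpin culture, beside 3.36% of all probes. In the other direction, 94 (1.95%) were lower with Ceacam1L and higher with the hairpin, beside 2.44% of all. Calls in the same direction numbered 59 higher in both (1.22%, beside 1.83% of all) and 160 lower in both (3.31%, beside 1.54% of all). By interval, with its brightest probe, 27 (1.35%) and 27 (1.35%) of 2006 had opposite calls, 22 (1.1%) were higher in both and 46 (2.29%) lower in both. Of the 10 named by rule, chr4:63736566-63744848 and chr1:175660642-175671878 had another probe with the same pattern. In chr4:63736566-63744848, 61.6 kb from the extracellular matrix gene Tnc, the brightest probe had 0.27 on NSC and -1.89 on NSCL61-Ceacam1sh and was not detected on the other 2 arrays. With Ceacam1L it was lower by at least 34.9-fold, and the hairpin array was brighter by at least 6.79-fold. Tnc had 0.73, -1.73, -0.20 and 1.51.

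Intervals that hold a gene moved with that gene when the strand was the same. A gene-named probe lay inside 543 intervals (16.0%), and in 157 (4.63%) it had a protein-coding accession, so that a part of the intervals is not intergenic. On the same strand, Pearson r between the differences of the interval and of the gene was 0.46 with Ceacam1L (n = 202), 0.59 with the hairpin (n = 180) and 0.53 between NSCL61 and NSC (n = 191). On the opposite strand it was -0.00 (n = 67), 0.19 (n = 64) and 0.07 (n = 69). With the nearest gene-named probe outside the interval but within 10 kb it was 0.13 (n = 408), 0.26 (n = 396) and 0.24 (n = 420), and at 10 to 100 kb 0.04 (n = 575), 0.13 (n = 547) and 0.06 (n = 565). These correlations are across intervals that share the same 2 arrays, and describe them. Detection also differed by position. Of the 390 intervals with a gene-named probe inside on the same strand, 83.8% were detected by their brightest probe. Of the 395 with no gene-named probe within 100 kb, 64.3% were.

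Probes over annotated promoters and microRNA hairpins were rare. In all, 249 lincRNA probes from 164 intervals overlapped a RefSeq promoter window (GRCm38.p6, matched by sequence), 138 of them antisense and 111 in the sense of the gene. Of the antisense probes 63.0% were detected on 1 array or more, and of the sense probes 53.2%. Only 11 probes matched a microRNA hairpin, and 5 of the 11 were detected on an array. The let-7 probe printed above, which holds the whole mature let-7c, was not detected on NSC and had -4.38, -3.56 and -3.81 on the other 3 arrays. The lowest detected signals of any probe on those 3 arrays were -4.85, -4.65 and -4.75. Another probe in the sense of the Mirlet7c-2 hairpin was detected on no array. These values are not given as a level of mature let-7, and which transcript gave the signal was not tested.

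Of the neighbour lists, the neural transcription factors had 33 intervals within 100 kb of 13 genes, and 29 were detected by their brightest probe. Some of the 33 overlap and may count the same transcript. With Ceacam1L, 2 of 28 evaluated were higher and 3 lower, beside 6.31% and 9.19% of all intervals. With the hairpin 2 of 28 were higher and 7 lower, beside 11.2% and 23.4%, and between NSCL61 and NSC 4 were higher and 3 lower, beside 12.2% and 8.84% (21.1% either way). The medians of those detected on both arrays were -0.40, -0.38 and 0.19, and the medians of all lincRNA intervals were -0.24, -0.25 and 0.11.

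The Pantr1 interval beside Pou3f3 had 6.16, 5.95, 4.94 and 2.01 by its brightest probe and 4 of 4 evaluated reverse probes lower with the hairpin. Pou3f3, a POU-domain transcription factor, had 1.07, 0.91, 0.20 and -0.56. In chr4:124127144-124334840, 2.9 kb from Pou3f1, the brightest probe was at -2.19 on NSCL61 and at least 5.91-fold lower on NSCL61-Ceacam1sh. It was the only 1 of 5 reverse probes evaluated with the hairpin, and of 4 evaluated forward probes 1 was higher and 1 lower. In chr4:124206166-124334412, which overlaps it on the reverse strand, 3 of 3 evaluated probes were within 2-fold with the hairpin. In chr8:94841965-94881130, which holds the noncoding gene Crnde beside Irx5, the probe had -1.12, -2.22, 0.28 and 0.27, and Crnde -2.06, -3.07, -0.37 and -0.39, so both were lower with Ceacam1L and higher in NSCL61 than in NSC. The 2 intervals within 100 kb of Olig2 were within 2-fold in each comparison by their brightest probe, while Olig2 went from 3.96 on NSCL61 to not well above background on NSCL61-Ceacam1sh. In 1 of the 2, chr16:91198576-91199149, 29.3 kb from Olig2, a dimmer forward probe was detected at -4.45 on NSC-Ceacam1L and -2.61 on NSCL61 only, so that it was called lower with the hairpin and higher in the other comparisons. Of the 6 detected reverse-strand intervals within 100 kb of Sox4, 2 were lower with the hairpin by their brightest probe, and Sox4 was 2.35 lower. All 6 lie within the span of chr13:28477490-28985604, so they may count 1 transcript. In chr13:28477490-28985604, where the brightest reverse probe was within 2-fold, the other 2 of 3 evaluated probes were lower.

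The other lists gave smaller numbers. Of 18 intervals near STAT3, BMP and TGF-beta genes, 13 were detected. With the hairpin 6 of 12 evaluated were higher and 1 lower, beside 11.2% and 23.4% of all intervals. With Ceacam1L 1 of 11 was higher and none lower, beside 6.31% and 9.19% of all intervals. Between NSCL61 and NSC 1 of 10 was higher and none lower, beside 12.2% and 8.84%. In chr3:145313275-145315057, 3.0 kb from Ccn1, a matricellular target of YAP signalling, 3 of 3 probes were higher with Ceacam1L, by 1.51 for the probe detected on NSC, and with the hairpin by 1.78 to 2.79. Ccn1 itself was 3.33 and 3.39 higher. Of 16 intervals near cell cycle and p53 target genes, 13 were detected, and 1 of 13 was higher and 3 lower with the hairpin, beside the same 11.2% and 23.4%. With Ceacam1L 0 of 11 were higher and 3 lower, beside 6.31% and 9.19%, and between NSCL61 and NSC 2 of 12 were higher and 0 lower, beside 12.2% and 8.84%. The interval chr17:29183003-29217681, 2.8 kb from Srsf3 and 10.3 kb from Cdkn1a, the gene of the p21 cell cycle inhibitor, was 1.22 higher in NSCL61 than in NSC and 1.22 lower with the hairpin by its brightest probe, while Cdkn1a was 3.72 and 1.02 higher. The other evaluated probe of that interval was within 2-fold in both comparisons, with differences of 0.25 and 0.36. Of 11 intervals near mesenchymal and endodermal transcription factor genes, 7 were detected. With Ceacam1L 1 of 7 was higher and none lower, beside 6.31% and 9.19% of all intervals. With the hairpin none of 6 was higher and 1 lower, beside 11.2% and 23.4%. Between NSCL61 and NSC none of 6 was higher and 1 lower, beside 12.2% and 8.84%. In chr11:96111499-96126224, 11.5 kb from Hoxb9, the brightest reverse probe had 6.12, 5.84, 3.59 and 0.93, yet the other detected reverse probe was within 2-fold in each comparison. Hoxb9, a posterior patterning gene, was detected on NSCL61-Ceacam1sh alone. The printed Fendrr probe was detected on NSC-Ceacam1L alone, at -1.73, and none of the other 4 reverse probes of the interval was detected on any array.

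Long noncoding RNA genes with names of their own served as the background list. Of 58 listed, 39 had a probe and 32 were detected. With Ceacam1L 1 of 30 was higher and 3 lower, beside 9.6% and 7.93% of all probes. With the hairpin 5 of 31 were higher and 7 lower, beside 21.5% and 24.8%, and between NSCL61 and NSC 9 of 31 were higher and 5 lower, beside 14.3% and 13.1%. H19, an imprinted RNA, had 1.26, 0.69 and 5.26, and was not well above background on NSCL61-Ceacam1sh, at least 1033-fold lower than on NSCL61. Xist, the RNA that coats the inactive X chromosome, had 1.85, 1.26, 0.42 and -4.05. Six3os1, beside the forebrain gene Six3, was at 3.32 on NSCL61 and at least 269-fold lower with the hairpin. Meg3, an imprinted RNA, was detected on NSCL61-Ceacam1sh alone, at -2.23.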

How the data were processed

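Total RNA of 4 groups was measured on 1 array each, and groups were taken from the sample titles. The authors deposited scanner output with intensity values per spot, after background subtraction and spatial detrending, made with Feature Extraction 10.7.3.1, per the file headers (version 9.1 per the submitters' processing notes). A deposited table holds log2 values of unknown centring, with column medians of 0.25, -0.20, 0.00 and 0.03 in the order NSC, NSC-Ceacam1L, NSCL61, NSCL61-Ceacam1sh, and served as an alternative. Coordinates are on mm9, per the file headers.

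Signals were scaled to the 75th percentile of non-control spots on their array (480.0, 571, 439 and 541) before log2. No spot of a lincRNA probe was saturated, and 3 outlier spots on NSC were left out. The median modelled error was 0.16 to 0.17. For a probe detected on 1 array, an "at least" fold divides its value by its own signal on the dim array or by the lowest detected signal of that array, whichever is larger. Of several probes of an interval or gene, the one with the highest mean was used. Neighbours were gene-named probes placed by the coordinates in the files, 118 lincRNA probes had none, and 8, all those of 2 intervals, lay outside their named interval and were placed by their own coordinates. A distance to a gene is to its probe and not to the ends of the gene, so an interval at some distance may lie inside that gene. Gene names came from RefSeq (GRCm38.p6).

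Intervals were named by a rule: the 5 brightest, the 5 largest differences each way and 3 largest bounds per comparison, up to 5 with opposite Ceacam1 calls each way, and those within 100 kb of listed genes. The members and lists were chosen with earlier results of these data known. Chromosome 18 intervals (145) enter counts only. Python 3.11.15, pandas 2.3.3, R 4.3.3 with limma 3.58.1 (alternatives) and BLAST+ 2.17.0 (copies) were used, and the calling step was tested on simulated data. Alternatives covered scaling, background, filters, thresholds and the deposited table.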

Additional observations from a re-analysis of the deposited data

How the results depend on the processing

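The 149 called differences of named intervals were recomputed under 7 scaling and source alternatives. Of 1043 values none changed sign, 786 moved by less than the modelled error and 257 by more, 131 of these with normexp background correction. The deposited table gave counts within 1.5 times of the main ones. No paired analysis was possible because each group had 1 array. Signal over background limited which probes could be evaluated, with 29.4% to 35.1% of lincRNA probes detected on an array. With the scanner's looser flag, 8575, 9106, 9686 and 8738 probes were detected on the 4 arrays. Counted by interval, detection numbered 1973, 2117, 2206 and 1998.

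Counts of higher and lower probes are given first for Ceacam1L in NSC, then for the hairpin in NSCL61, then for NSCL61 against NSC. With normexp they were 131 and 263, 324 and 728, and 295 and 272. With detection on both arrays they were 102 and 274, 347 and 633, and 245 and 267. At 4-fold they were 276 and 327, 529 and 954, and 527 and 381. By interval they were 138 and 201, 259 and 541, and 278 and 201 with the brightest probe, and 99 and 253, 229 and 492, and 204 and 204 with the mean of a strand. Without a filter, 1687 were lower in the NSC-Ceacam1L comparison, 1430 were higher and 2790 lower with the hairpin, and 1577 were higher and 1372 lower between NSCL61 and NSC. At 1.5-fold, 784 were higher and 1361 lower in the NSC-Ceacam1L comparison, and 1615 were higher between NSCL61 and NSC. At that threshold, calls in both directions on an interval strand numbered 99, 187 and 129, and calls in 1 direction numbered 332 for NSC-Ceacam1L and 440 for NSCL61 against NSC.

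The correlation of interval and neighbour differences over all intervals within 100 kb was 0.14, 0.23 and 0.18. It was 0.25, 0.33 and 0.30 within 10 kb, and 0.0709, 0.18 and 0.13 without intervals that hold a gene. The cause of these changes was not tested, apart from the fewer probes that stricter filters and intervals count by construction.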
